A study of Mus musculus with 16 samples.

Results

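The clustered protocadherins are a family of cell-surface adhesion proteins encoded by the adjoining Pcdha, Pcdhb and Pcdhg gene clusters. Members were all protein-coding genes of the GENCODE M21 annotation on mouse chromosome 18 with a name starting with Pcdha, Pcdhb or Pcdhg, 57 of 21853 protein-coding genes on chromosomes 1 to 19, X and Y. Of these, 14 were Pcdha, 22 Pcdhb and 21 Pcdhg genes. Accessible regions were taken from the 300 kb before the first gene to the 300 kb after the last one, where 137 of the 81132 regions of the list had their centre.

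ATAC-seq, in which the Tn5 transposase inserts adapters into open chromatin, was performed on SBROS mouse ES cells, a CGR8-derived Sox1/Brachyury reporter line in which both Sox2 alleles carry a SNAP-tag and 1 Oct4 allele carries a HALO-tag. Cells grown in serum with LIF, CHIR99021 and PD184352 were stained with HaloTag TMR, SNAP-SiR647 and Hoechst and sorted in G1 phase into 4 populations, with 3 replicates each and 12 libraries in all. SHOH and SHOL cells were high in SOX2, with OCT4 high in the former and low in the latter, and SLOH and SLOL cells were low in SOX2, divided by OCT4 in the same way. It is a single knock-in line, and its HALO-tag reports 1 of the Oct4 alleles. The authors merged the peaks of all libraries into 1 list that gives only the position of each region on mm10, so the number of reads behind a region is unknown, no replicate error can be attached to it and the 4 populations were not compared.

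In neurons, each cell uses a few of the variable clustered protocadherin promoters, and the combination of proteins on its surface is read by contacts between cells. Each Pcdha and Pcdhg variable exon carries its own promoter and is spliced to constant exons shared by its cluster, whereas Pcdhb genes hold their whole coding sequence in a single exon. The C-type genes at the downstream ends of the Pcdha and Pcdhg clusters are used more uniformly. CTCF and cohesin bring promoters together with distant enhancers, and methylation of CpG dinucleotides is one of the known layers of promoter choice.

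All 57 genes lay on the plus strand between positions 36930184 and 37841873 of chromosome 18, a span of 912 kb. This span held 88 regions, or 96.5 per Mb, against 28.8 per Mb over chromosome 18 and 32.2 per Mb over the autosomes. Among 2692 windows of the same length laid end to end along the autosomes, the median was 26.0 regions, with quartiles of 13.0 and 42.2, and 22 windows (0.817%) held at least 88. The span was thus dense in regions in these ES cells. Its flanks of 300 kb held 66.7 regions per Mb upstream and 96.7 downstream, so a high density was not particular to the clusters. The windows were not matched for their number of genes. Density was 77.7 regions per Mb in Pcdha, 112 in Pcdhb and 189 in Pcdhg, and regions covered 2.73%, 4.12% and 7.07% of the clusters. Neighbouring regions of the span lay a median of 4471 bp apart, against 11295 bp over the list.

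**Figure D1:**
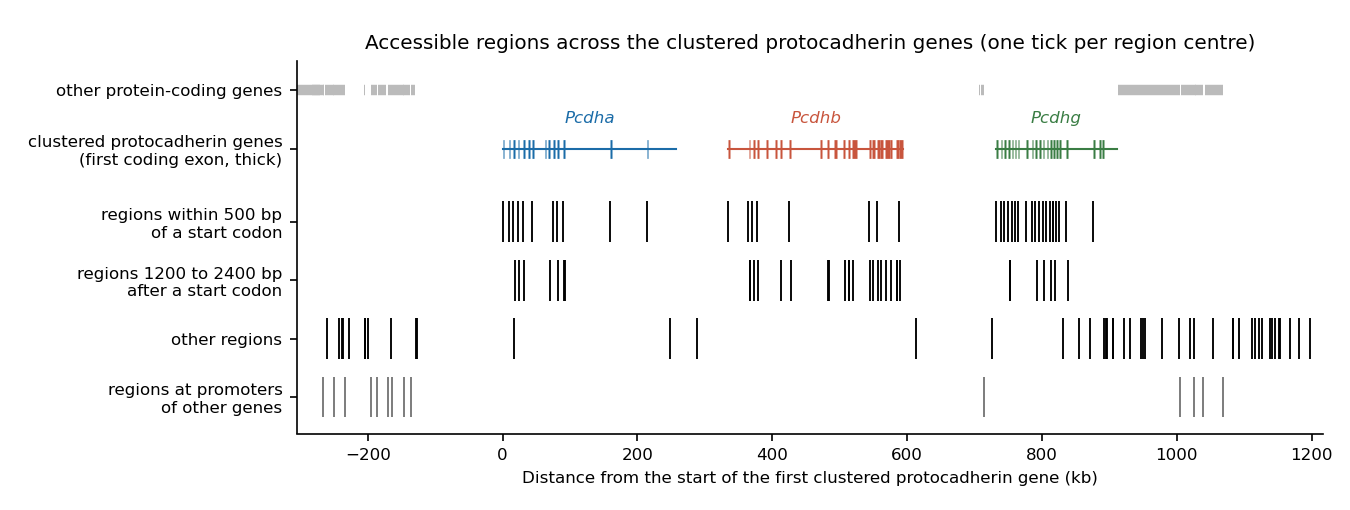
Map of the regions around the clustered protocadherin genes. The x axis gives the distance in kb from the start of the first gene, thick bars mark the first coding exon of each gene, grey bars other protein-coding genes, and each tick marks the centre of 1 of the 137 regions. Ticks within 500 bp of a start codon crowd the Pcdhg cluster, while those 1200 to 2400 bp after a start codon crowd the downstream part of the Pcdhb cluster.

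Of the 88 regions in the span, 75 lay in a promoter or variable exon. For 39 of them the centre was within 500 bp of a start codon, for 35 it was 1200 to 2400 bp after one, and for 1, in Pcdha3, it was neither. The regions therefore fell into an early and a late group along the exon. Both intervals were chosen after the regions had been seen, so the counts in them are descriptions.

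A promoter was first taken as the 1000 bp before and the 100 bp after a TSS. By this rule a region was centred in the promoter of 21 of 57 clustered protocadherin genes (36.8%, 95% Wilson interval 25.5% to 49.8%), against 53.0% of all protein-coding genes. The counts were 6 of 14 Pcdha genes (42.9%), 6 of 22 Pcdhb genes (27.3%) and 9 of 21 Pcdhg genes (42.9%). Some regions reached into this stretch while their centre lay further downstream. With any overlap counted, 33 of 57 genes (57.9%, 45.0% to 69.8%) had a promoter region, against 65.1% of all protein-coding genes. The Pcdhg count then became 17 of 21 (81.0%), Pcdha 8 of 14 (57.1%) and Pcdhb 8 of 22 (36.4%), so that Pcdhb had the lowest share of the 3 clusters under both rules. The comparison with all genes depended on the window. With a region centred up to 500 bp to either side of a TSS, the count was 36 of 57 (63.2%), against 63.8% of all protein-coding genes, and with 2000 bp it was 43 of 57 (75.4%, 62.9% to 84.8%), against 69.3%, so that the order turned. When regions under 200 bp were left out of the first rule, the Pcdhb count became 2. The intervals cover counting error only, and members of a cluster resemble each other in sequence and are not independent.

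**Figure D2:**
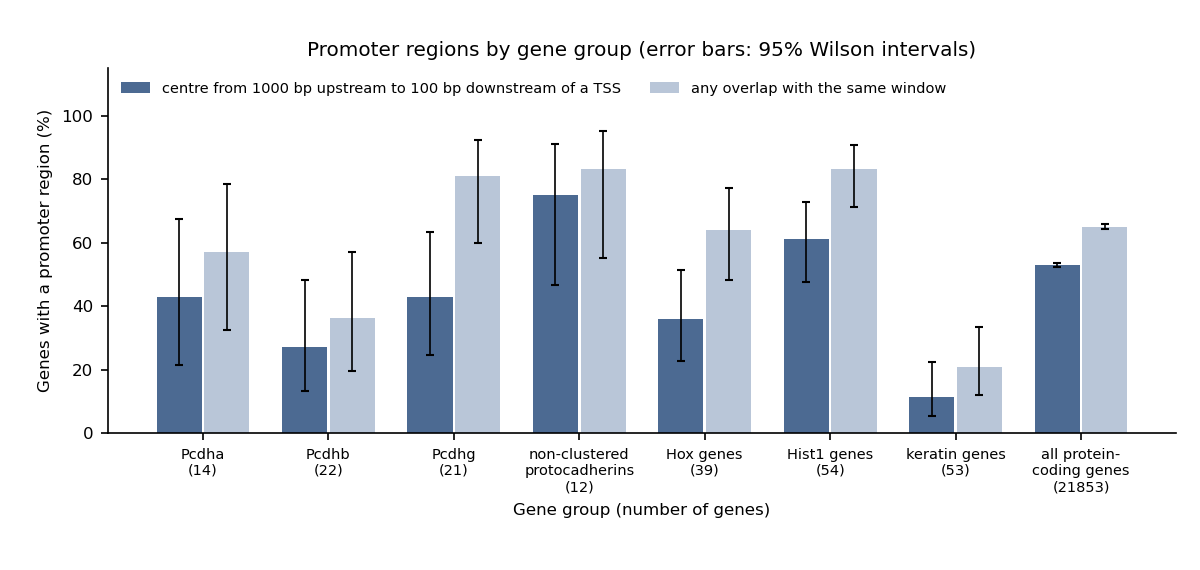
Percentage of genes with a promoter region, by gene group, with the number of genes in parentheses. Dark bars count regions centred in the promoter and light bars any overlap, and error bars are 95% Wilson intervals. Pcdhg rises from 42.9% to 81.0% between the rules, while Pcdhb stays below all protein-coding genes under both.

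Other families that lie in clusters differed widely. A promoter region by centre was found for 14 of 39 Hox genes (35.9%), 33 of 54 Hist1 histone genes (61.1%) and 6 of 53 keratin genes (11.3%), and by overlap for 25, 45 and 11 of them. The clustered protocadherins thus lay between the keratin and the Hist1 genes under both rules. Their promoter regions were narrow, with a median width of 320 bp over 22 regions, against 659 bp over 12356 promoter regions of the list and 355 bp over all regions. For genes with several protein-coding transcripts, each TSS counted, and distances were taken from the one closest to a region. The TSS of a clustered protocadherin gene lay a median of 182 bp from the centre of the closest region, close to the 188 bp of all protein-coding genes, and 442 bp when regions under 200 bp were left out. By cluster this distance was 232 bp in Pcdha, 1896 bp in Pcdhb and 139 bp in Pcdhg. The Pcdhb genes spread widely, with quartiles of 112 and 2118 bp, and overlapped the other clusters.

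Since variable exons begin near their start codons, regions were then placed relative to the start codon of the transcript with the longest coding sequence. A region was centred within 500 bp of it in 38 of 57 clustered protocadherin genes (66.7%), against 41.2% of all protein-coding genes. Hox genes (74.4%) and Hist1 genes (81.5%) had still higher shares and keratin genes a lower one (18.9%), so a high share at the start codon was shared with other clustered families. The 251 genes outside the clusters with a first coding exon of at least 2000 bp are closer to them in structure, and 20.7% of these had such a region. In the late interval, 1200 to 2400 bp after the start codon, a region was centred in 29 of 57 genes (50.9%), against 4.69% of all protein-coding genes and 12.7% of the genes with a long first coding exon. The share was 7.69% for Hox, 14.8% for Hist1 and 1.89% for keratin genes, and 4 of 12 non-clustered protocadherins (33.3%, 13.8% to 60.9%) also had a late region. First coding exons were 2346 to 2562 bp long in Pcdha, 2316 to 2487 bp in Pcdhb and 2364 to 2460 bp in Pcdhg, so the late interval lay in their downstream part.

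**Figure D3:**
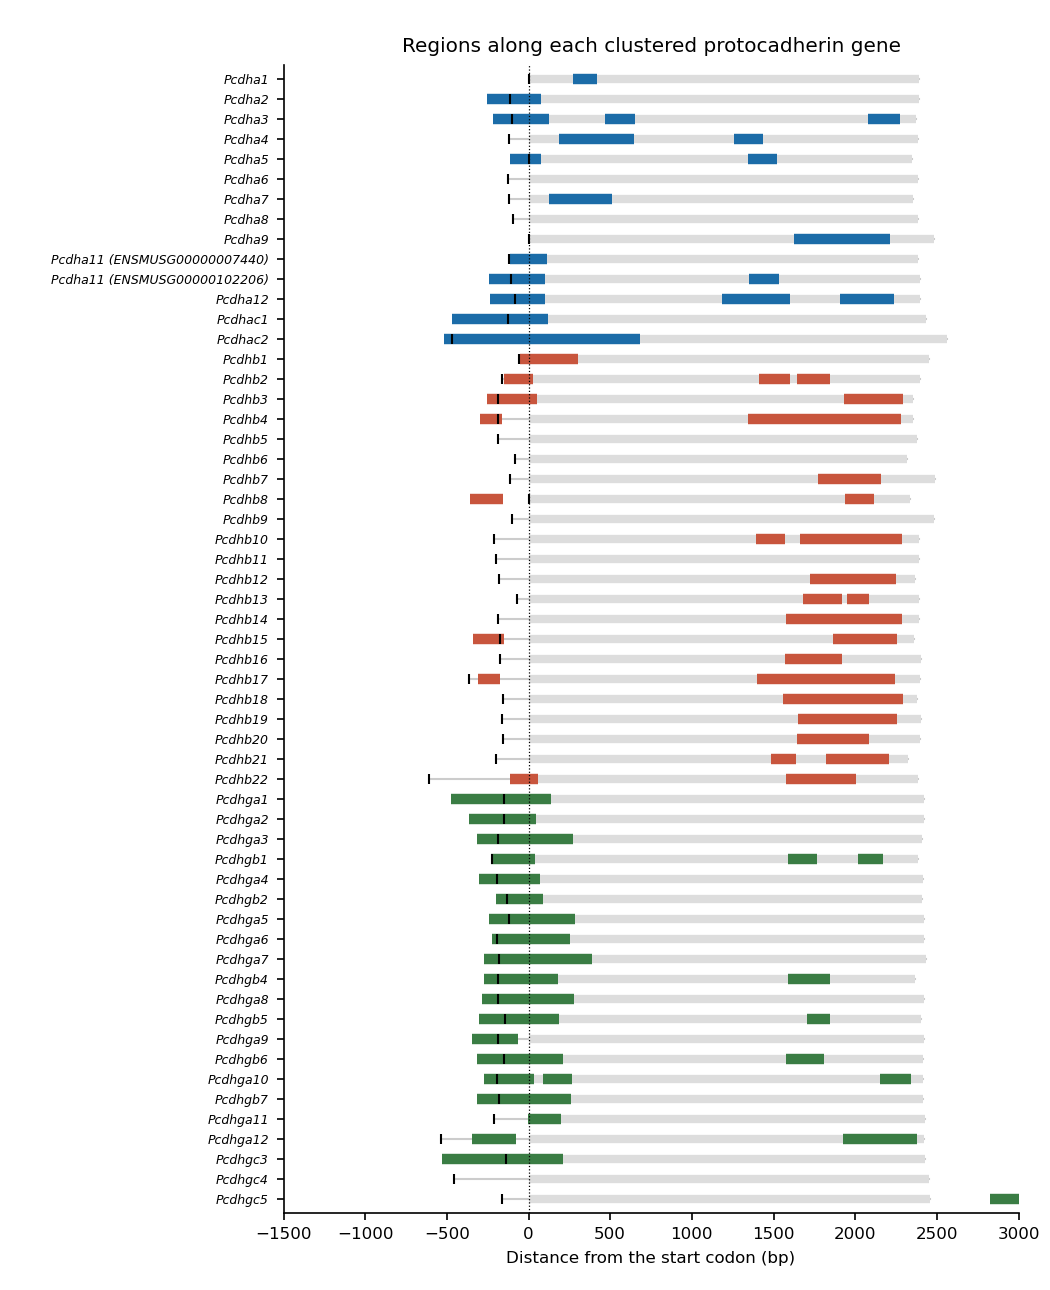
Regions along each of the 57 clustered protocadherin genes in genomic order. The x axis is the distance in bp from the start codon, grey bars are first coding exons, black marks the TSS of the transcript used and coloured bars are regions. Pcdhg regions (green) line up at the start of the exon, Pcdhb regions (red) mostly in its late part, and Pcdha regions (blue) at both.

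In Pcdha, 11 of 14 genes had a region at the start of the exon and 6 of 14 in its late part. Pcdha6 and Pcdha8 had neither, and their TSSs lay 5758 and 7428 bp from the centre of the closest region. Pcdha9 had only a late region of 588 bp, centred 1919 bp after the start codon. The start regions were not all placed alike. Those of Pcdha2 (332 bp wide), Pcdha3 (347 bp), Pcdha5 (189 bp) and Pcdha12 (335 bp) were centred between -92 and -18 bp relative to the start codon. Those of Pcdha1 (146 bp), Pcdha4 (458 bp) and Pcdha7 (387 bp) were centred 346, 416 and 320 bp after it and left the TSS uncovered. GENCODE M21 gives the name Pcdha11 to 2 gene IDs. ENSMUSG00000007440, whose closest RefSeq gene start on the same assembly, 117 bp away, is that of Pcdha10, had a start region of 225 bp. ENSMUSG00000102206 had a start region of 343 bp and a late region of 184 bp. This late region lay at the TSS of another transcript of the gene and was also counted among the promoter regions. Late regions of Pcdha had their centres 1347 to 2175 bp after the start codon, with a median of 1441 bp over 7 regions, and in Pcdha3, Pcdha4, Pcdha5 and Pcdha12 they also accompanied a start region. The late count rested partly on narrow regions and became 3 when those under 200 bp were left out.

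In Pcdhb, whose genes form the part of the locus without constant exons, the pattern was turned round. A region lay at the start of the exon in 8 of 22 genes (36.4%), whereas 17 of 22 (77.3%) had one in its late part. The start share was below those of Pcdha (78.6%) and Pcdhg (90.5%), but close to the 41.2% of all protein-coding genes. Among the genes with a long first coding exon it was 20.7%. The late share stood against 4.69% of all protein-coding genes and 12.7% of the genes with a long first coding exon. The late group consisted of 21 regions with centres 1483 to 2114 bp after the start codon and a median of 1924 bp, and at 1950 bp regions covered 15 of 22 genes. These regions were wider (median 389 bp) than the 8 start regions (182 bp), of which 5 were under 200 bp. With these left out, 3 Pcdhb genes had a start region. The widest late regions were those of Pcdhb4 (938 bp), Pcdhb17 (843 bp), Pcdhb18 (732 bp) and Pcdhb14 (709 bp).

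Position along the cluster and region type did not run strictly together in Pcdhb. Pcdhb1, the most upstream gene, had only a start region, of 351 bp. Pcdhb2, Pcdhb3, Pcdhb4, Pcdhb8, Pcdhb15, Pcdhb17 and Pcdhb22 had both kinds. Pcdhb7, Pcdhb10, Pcdhb12, Pcdhb13, Pcdhb14, Pcdhb16, Pcdhb18, Pcdhb19, Pcdhb20 and Pcdhb21 had a late region alone. Pcdhb5, Pcdhb6, Pcdhb9 and Pcdhb11 had neither, and their TSSs were 10930, 9831, 12501 and 7573 bp from the centre of the closest region. The 11 most downstream genes, Pcdhb12 to Pcdhb22, each had a late region, so the 4 genes without regions lay in the upstream part.

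In Pcdhg, 19 of 21 genes had a region at the start of the exon, and these 20 regions were centred from -212 to 176 bp relative to the start codon, with a median width of 467 bp. All 12 Pcdhga and all 6 Pcdhgb genes were among them. Pcdhga1 (612 bp), Pcdhga7 (658 bp), Pcdhga3 (592 bp) and Pcdhgb7 (580 bp) had wide regions, and narrow ones were found at Pcdhga11 (206 bp), Pcdhga12 (267 bp) and Pcdhgb1 (269 bp). Pcdhga10 had 2 start regions, of 309 and 182 bp. Pcdhga2, Pcdhga4, Pcdhga5, Pcdhga6, Pcdhga8 and Pcdhga9 had start regions of 282 to 559 bp. Late regions set the subfamilies apart, with 4 of 6 Pcdhgb genes (Pcdhgb1, Pcdhgb4, Pcdhgb5 and Pcdhgb6) against 2 of 12 Pcdhga genes (Pcdhga10 and Pcdhga12). Pcdhgb2 and Pcdhgb7 had a start region alone. This difference rests on few genes and narrow regions, and was not tested. With regions under 200 bp left out, 3 Pcdhg genes had a late region.

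The 5 C-type genes did not share a pattern. Pcdhac1 had a region of 589 bp centred at -176 bp from the start codon, and Pcdhac2 one of 1199 bp that reached from the TSS into the exon and was the widest of the window. Pcdhgc3 had a region of 739 bp centred at -160 bp from the start codon. Pcdhgc4 and Pcdhgc5 had none at the start, with the centre of the closest region 7356 and 3191 bp from the nearest of their TSSs, and no C-type gene had a late region.

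**Figure D4:**
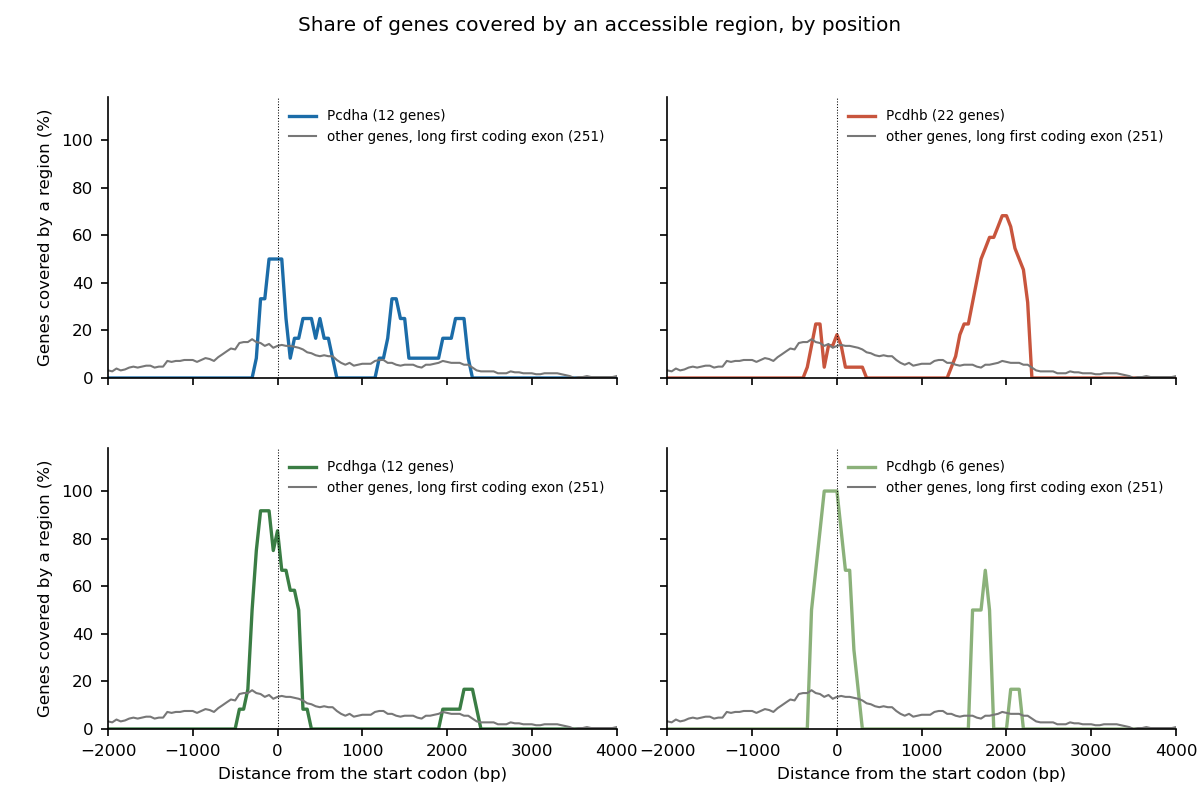
Percentage of genes covered by a region at each distance from the start codon, for Pcdha and the Pcdhg subfamilies without their C-type genes and for Pcdhb, with the 251 other genes with a long first coding exon in grey. The lines of Pcdhga and Pcdhgb peak at 91.7% and 100% near the start codon, and the line of Pcdhb peaks at 68.2% at 1950 bp after it. Between the start and the late part, no Pcdhb, Pcdhga or Pcdhgb gene was covered at 500 bp.

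Base composition was compared because unmethylated CpG-rich DNA is often accessible. The ratio of observed to expected CpG within 500 bp of the TSS had a median of 0.69 in Pcdha, 0.38 in Pcdhb and 0.59 in Pcdhg, against 0.57 over all protein-coding genes. Clustered protocadherin genes with a promoter region by centre had a median of 0.56 (range 0.21 to 0.80, 21 genes) and those without one 0.53 (0.16 to 0.86, 36 genes), so the ranges overlapped almost fully. Over all protein-coding genes, the medians were 0.72 with and 0.23 without a promoter region. Divided by a region within 500 bp of the start codon instead, the medians differed more, with 0.59 (quartiles 0.49 and 0.69, 38 genes) with a region and 0.38 (0.27 and 0.47, 19 genes) without one. Within each cluster this difference was smaller or turned round, with 0.40 against 0.34 in Pcdhb, 0.59 against 0.45 in Pcdhg, where 2 genes had no such region, and 0.69 against 0.72 in Pcdha. The low ratio of Pcdhb went with its low share of promoter regions, and its part in that share was not tested.

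CpG content also varied along the exon. In Pcdhb the median ratio was 0.24 in the first 250 bp after the start codon and highest, 0.67, from 1500 to 1750 bp, upstream of the median centre of the late regions. In Pcdhgb it reached 1.18 from 1500 to 1750 bp, where 3 of the 6 genes were covered by a region at 1650 bp. In Pcdha it was 0.90 from 250 to 500 bp and 0.91 from 1250 to 1500 bp, the latter at the median centre of the late Pcdha regions. Pcdhga genes, of which 2 had a late region, had a median of 0.32 from 1500 to 1750 bp and 0.70 in the first 250 bp. Over the whole late interval, the 17 Pcdhb genes with a late region had a median ratio of 0.47 (0.39 to 0.59) and the 5 without one 0.40 (0.25 to 0.41), with some overlap. In Pcdha the ratios were 0.71 in 6 genes with and 0.66 in 6 genes without a late region, C-type genes left out, and again overlapped. In Pcdhga, 2 genes with a late region had a median of 0.61 (0.50 to 0.72) and 10 without one 0.29 (0.20 to 0.53), whereas in Pcdhgb the medians were 0.75 in 4 genes with and 0.73 in 2 genes without. Whether CpG content plays a part in where the regions lay was not tested.

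**Figure D5:**
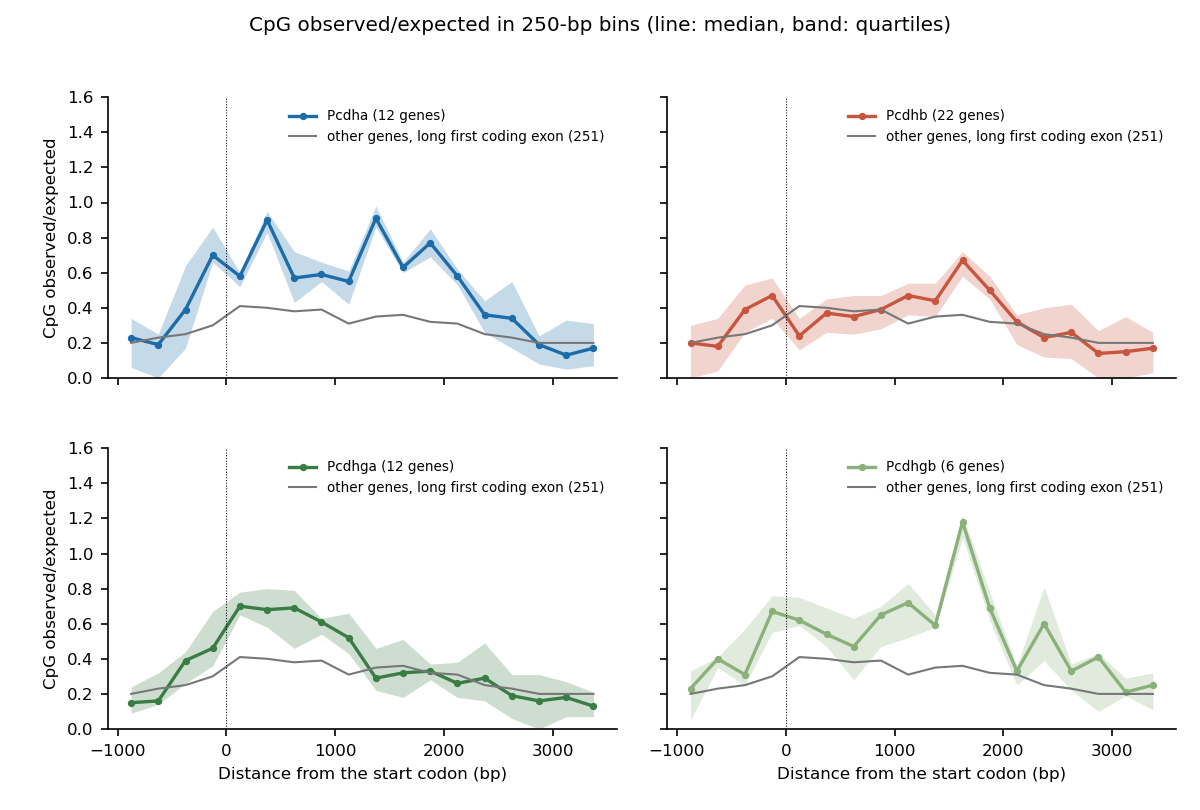
CpG observed/expected in bins of 250 bp along the genes, by distance in bp from the start codon. Coloured lines are medians over genes, bands are quartiles, and the grey line is the median of the 251 other genes with a long first coding exon. Peaks of 0.67 in Pcdhb and 1.18 in Pcdhgb stand 1500 to 1750 bp after the start codon, where Pcdhga has 0.32.

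CTCF binds many clustered protocadherin promoters in neurons, and a strict form of its core motif was searched on both strands. It was found in 11 of 137 regions of the window (8.03%, 4.54% to 13.8%), against 5.93% of all regions, and in 2.19% against 4.51% when the search was limited to the central 200 bp. The window as a whole therefore did not stand out. Of the 35 late regions, 7 held a match (20.0%, 10.0% to 35.9%), and of the 39 start regions 2 (5.13%), those of Pcdha4 and Pcdha7. In the central 200 bp, however, 0 of the 35 late regions (up to 9.89%) held one, so their matches lay towards the edge of the regions. With a looser form of the core that allows any base at the variable positions, the late regions (25.7%) did not stand out from all regions (24.5%). Over the genes, strict matches recurred at fixed places in Pcdha and Pcdhb, and none was found in the Pcdhg genes. In Pcdha, 6 genes (Pcdha1, Pcdha4, Pcdha6, Pcdha7, Pcdha8 and Pcdha12) had a match 456 to 459 bp after the start codon on the strand of the gene. In Pcdhb, 13 genes had a match 2182 to 2206 bp after it on the opposite strand. Of these 13 genes 12 had a late region, and 7 of the matches lay inside a region, while 5 of the 9 Pcdhb genes without a match also had a late region. Genes of a cluster are paralogs and not independent observations, and a match is a description, not a binding site.

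The motifs of the factors that define the sorted populations were searched in the same way. The SOX motif (CCATTGT or CCTTTGT) was found in 33 of 88 regions of the span (37.5%, 28.1% to 47.9%), in 6 of the 49 regions of the flanks (12.2%) and in 16.0% of all regions, whose median width (355 bp) was close to that of the span (348 bp). It was as frequent in the start regions (17 of 39, 43.6%) as in the late ones (15 of 35, 42.9%). Of the start regions with a match 12 were in Pcdhg, and all 15 late ones were in Pcdhb. On the opposite strand, 18 of 22 Pcdhb genes had a match 1852 to 1864 bp after the start codon and 17 had another 1930 to 1942 bp after it, and these matches lay inside a region in 11 and 10 genes. Pcdhb5, Pcdhb6 and Pcdhb11, which had neither kind of region, carried both matches too. Matches thus recurred among paralogs, so the regions of the span are not independent observations and the interval covers counting error only. Here too a match is a description, not a binding site. The OCT octamer ATGCAAAT was found in 0 of 88 regions of the span (up to 4.18%). In the window it was found in 1 of 137 regions (0.129% to 4.02%), 173 kb past the last Pcdhg gene. Both intervals contained the 2.66% of all regions.

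Reads had been kept only where they mapped uniquely, and the genes of a cluster resemble each other, so the share of 75-base words that occur once in the genome was computed. In promoters it had a median of 100% over the 57 genes, with a lowest value of 94.1% in Pcdhgb4, and a median of 100% over both the genes with and those without a promoter region. Other genes of chromosome 18 also had a median of 100%. In the late part the median was 92.3% in Pcdha and 99.1% in Pcdhb. In Pcdhg it was 100%. Pooled over the clusters, it was 97.6% in genes with a late region and 100% in those without one. The latter included 15 Pcdhg genes. In Pcdha, the 6 genes with a late region had values of 84.6% to 94.1%. Of the Pcdha genes without one, Pcdha1 (85.1%) and Pcdha6 (86.4%) lay in this range, and the others had 94.3% to 100%. The lowest values, 70.2%, were those of Pcdhgb1, which had late regions, and Pcdhgb2, which had none. The part of uniqueness in where late regions were found was not tested.

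Outside promoters and variable exons, few regions lay in the clusters, and the known positions of their enhancers were not used here. The constant part of Pcdha held 1 region, 37178373 to 37178581 (209 bp), between the constant exons 2 and 3 and over an exon of the antisense transcript Gm10544. The stretch of 77.3 kb between Pcdha and Pcdhb held 1 region, 37217977 to 37218521 (545 bp), in a place without an annotated gene other than read-through genes, 30.6 kb past the end of Pcdha and 46.7 kb before Pcdhb. Its CpG ratio of 0.82 was above the median of 0.54 in the window. Regions covered 1.91% of the 137 kb between Pcdhb and Pcdhg, where the longest stretch without one was 99.5 kb. The 4 regions there were 37543585 to 37544314 (730 bp), 19.5 kb past the end of Pcdhb, a region of 736 bp at the promoter of Taf7, which encodes a subunit of the general transcription factor TFIID, one of 551 bp over the lincRNA 3222401L13Rik, 6.02 kb before Pcdhg, and the region of Pcdhga1, which began upstream of its gene. Slc25a2, a mitochondrial carrier gene beside Taf7, had no promoter region, and neither had the read-through genes Gm42416, Gm37013 and Gm37388, whose annotation runs from Pcdha to Pcdhg.

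The constant part of Pcdhg differed from that of Pcdha. It held 5 regions in 19.7 kb, against 1 in 41.1 kb. One of 174 bp covered the constant exon 1, 1 of 407 bp lay between the constant exons 1 and 2, and 2, of 448 and 650 bp, lay 6 bp apart between the constant exons 2 and 3. Of these 4 regions, the 3 outside exons had CpG ratios of 0.11 to 0.16, below the medians of 0.62 and 0.54 of the start and late regions. The fifth, of 518 bp, lay between the last variable exon and the constant exon 1. Between the variable exons of Pcdhg, 3 more regions, of 377, 140 and 209 bp, lay upstream of Pcdhga12 and between Pcdhga12 and Pcdhgc3.

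The flanks showed opposite arrangements next to the clusters. Upstream of Pcdha1 no region was found for 127 kb, the longest empty stretch of the window. Beyond it lay 20 regions, 9 of them at promoters of other genes, among them Zmat2, Hars and Hars2 (histidyl-tRNA synthetases), Dnd1, Wdr55, Ik, Ndufa2, Tmco6, E230025N22Rik, Slc35a4, Apbb3 and Eif4ebp3. Ankhd1, which reaches into the window from further upstream, had its promoter region outside the window. Downstream of Pcdhg, the first region stood 10.4 kb past the last gene, and 7 regions lay within Diaph1, a formin gene, before its own promoter region 93.5 kb past the clusters. They stood 10.4, 18.4, 35.6, 38.4, 41.8, 66.4 and 91.0 kb from the end of Pcdhg and were 165 to 731 bp wide. The one at 41.8 kb, on the minus strand, and 1 within Arap3 at 143 kb, on the plus strand, held the strict CTCF core matches of the flanks. Further promoters with a region in this flank were those of Hdac3, a histone deacetylase, Rell2, Fchsd1 and Arap3. The flanks held 29 regions downstream and 20 upstream in 300 kb each.

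Among related genes outside the clusters, and against 53.0% of all protein-coding genes by centre and 65.1% by overlap, 9 of 12 non-clustered protocadherins had a promoter region by centre, among them Pcdh1, Pcdh10, Pcdh11x and Pcdh17. Pcdh12, Pcdh15 and Pcdh20 had none by this rule, and Pcdh20 had one by overlap. Of genes that regulate promoter choice in the clusters, 11 of 14 had a promoter region by centre, including Ctcf, the DNA methyltransferase gene Dnmt3a, the cohesin loader gene Nipbl and the cohesin subunit gene Rad21. Dnmt3b, another DNA methyltransferase gene, and Smc1a, which encodes a cohesin subunit, had one by overlap only. All 9 genes for partners of the proteins, such as Adam10, Axin1, Fyn and Nlgn1, had one by centre. As a check of the cell type, 5 of 6 ES cell markers, Pou5f1 and Sox2 included, had a promoter region by centre, while Nanog had none under either rule. Of 5 markers of other cell types 3 also had one, so promoter regions of this list did not tell the cell types apart.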

How the data were processed

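ATAC-seq was analysed for 12 libraries of sorted SBROS cells, and ChIP-seq samples were not used here. The authors aligned reads to mm10 with STAR (2.5.3a), kept unique mappers on chromosomes 1 to 19, X and Y, removed duplicates with Picard, called peaks per library with MACS2 (2.1.1.20160309), merged them with BEDOPS and left out any that met a peak of ChIP-seq input. No shift for the Tn5 insertion is named in the sources used here. The deposited region list used here gives starts and ends, with no count, score or library. The number of reads behind a region is therefore unknown.

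Region ends were checked against GRCm38 chromosome lengths. Genes came from GENCODE M21, and sequence from RefSeq GRCm38. Python (3.11.15), numpy (2.4.6), pandas (2.3.3), scipy (1.17.1) and matplotlib (3.10.9) were used, and counting, motif and word steps were tested on simulated data. Named genes were all members, neighbours with a promoter region or within the clusters, and, of non-clustered protocadherins, regulators and partners, genes without a promoter region and up to 4 with one in alphabetical order, plus Pou5f1, Sox2 and Nanog. A regulator without a promoter region by centre is not reported here. Genes and regions named for their width, position or motif were chosen after their values were seen. Members and lists were chosen with earlier results of these data known, and the start-codon intervals, the long-exon genes and the subfamily and C-type groups after the regions had been seen. No test was run.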

Additional observations from a re-analysis of the deposited data

How the results depend on the processing

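Because the list pools all libraries, replicates could not be left out, and read depth sets which regions could be called to an unknown degree. No paired analysis was possible because the deposited list has no column per replicate. The promoter counts depended on the window. With 500 bp to both sides of a TSS, 36 clustered protocadherin genes, 19 Pcdhg, 28 Hox and 11 keratin genes had a promoter region, and 63.8% of all protein-coding genes. With 2000 bp to both sides the counts were 43 clustered, 12 Pcdha, 12 Pcdhb, 19 Pcdhg, 35 Hox, 15 keratin and 50 Hist1 genes, and 69.3% of all. With any overlap they were 33 clustered, 17 Pcdhg, 25 Hox and 11 keratin genes, and 65.1% of all. Pcdhb fell to 2 genes with regions of at least 200 bp only. The share of all protein-coding genes was 57.7% with all transcripts, 51.3% with regions of at least 200 bp and 49.9% with neighbours joined. To the closest edge of a region, the median distance from a TSS was 6.00 bp, and to the centre 442 bp with regions of at least 200 bp only. From 1000 bp upstream to 100 bp downstream of the TSS, the median CpG ratio was 0.39 with and 0.35 without a promoter region. The share of regions with a CTCF core was 24.1% with the looser motif, where all regions had 24.5%, and 2.19% in the central 200 bp, where all regions had 4.51%.

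For the intervals around the start codon and the regions in them, the alternatives were chosen after seeing the data. In the late part, Pcdha fell to 3 genes in an interval of 1500 to 2200 bp and to 3 with regions of at least 200 bp, and Pcdhg to 3 with the latter. Pcdhb start regions fell to 3 genes with regions of at least 200 bp. The share of late regions with a CTCF core was 0% in the central 200 bp. The late Pcdhb count was 16 to 17 and the Pcdhg start count 19 under each of their alternatives. Of 83 other alternatives, 56 left a count within 1.5 times the reported one, or a share or median within its 95% interval.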
